A study of Hydra vulgaris with 99 samples.

Results

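In regenerating Hydra vulgaris, 52 of the 25879 loci of the count table rose late in tips rebuilding a foot and stayed under a low ceiling in tips rebuilding a head. They were chosen by their measured values, with a rule that also kept homeostatic head and foot within 2 log2 units of each other. A locus here is a group of transcript sequences that share a locus number in their identifiers. Its reads were summed over those sequences and given as CPM, counts scaled to the total reads of the library. A change R is the log2(mean CPM + 1) of a time minus that of the same series at 0 h.

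The rule took the basal series first. The mean R at 24, 36 and 48 h had to be at least 0.8, which held for 871 loci, and log2(mean CPM + 1) at 48 h had to be at least 2, which left 778. In both apical series R had to stay under 0.4 at every time, which left 162 loci. The mean of R at 4 and 8 h was allowed to be less than 0.5 higher in basal than in apical regeneration from the same level, which left 141. Of these, 52 had head and foot within 2 log2 units, 89 had foot at least 2 units above head, and 0 had head at least 2 units above foot. The rule would have kept up to 150 loci, so every locus that met it is included. The loci are called below by their rank, 1 being the largest mean late R.

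The working name of this set described it as lacking foot enrichment, and the data go against that name. The rule's limit removes only a large difference between head and foot, and it reads the same foot libraries. The rule used the difference between heads and feet, so its direction is given only as a description. Log2(mean CPM + 1) was lower in heads than in feet in 45 of the 52 loci. In the test described below, 46 loci (88.5%) were called higher in feet than in intact animals, against 9.60% of all loci tested. For this reason the 52 loci are called late basal loci here.

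Hydra is a small freshwater polyp whose body column carries a head with tentacles at the apical end and a foot, the basal disk and the peduncle above it, at the other. Both ends are renewed throughout life from stem cells of the column, and a piece of the column rebuilds whichever end it has lost. Basal disk cells secrete the mucus with which the animal attaches. Canonical Wnt signalling is the best known organizing activity of the head, and foot formation is known to follow its own genetic programme.

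The study asked how expression changes while Hydra rebuilds an apical or a basal end. The strain was Jussy, fed 3 times per week and given no treatment. Tips rebuilding the foot came from a section at the 50% level, the middle of the gastric column (basal series). Tips rebuilding the head came from the same level (apical 50% series) or from the 80% level after decapitation (apical 80% series). Each of these 3 series was taken at 10 times: right after section (0 h), then at 0.5, 1 and 2 h, then at 4, 8 and 16 h, and last at 24, 36 and 48 h. Animals in homeostasis gave heads, feet (the basal disk together with the lower peduncle) and whole intact animals. Each of the 33 groups had 3 libraries, lettered A, B and C and described as biological triplicates, with tissue of 20 to 25 animals in each. A library is thus a pool, and the spread between letters is one between pools. The labels name no transgene and no drug.

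Depth ran between 26401348 and 54273942 reads per library (median 33209894) over the 99 libraries. All 52 loci passed the filter on low counts, which kept 20883 loci. The identifiers pair with no gene name in the tables used here, so neither the identity of a locus nor markers of the labelled tissues could be checked, and no sequence is shown. At basal 48 h the loci had between 292 and 29360 reads over the 3 libraries, with a median of 2959. The place of some libraries within their group was counted. Library C of basal 24 h was the lowest of its group in 37 of the 52 loci (71.2%), against 40.3% of all loci tested, and without it all 52 were found again among 53. At 0 h, library A was the lowest of its group in 25 loci and the highest in 12 in the basal series, and the lowest in 22 and the highest in 19 in the apical 50% series. The share over all loci was not computed for these 0 h counts, and the rule used both A libraries, so nothing is read from them. Without both of these A libraries the rule found 52 loci, of which 43 were the same.

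The rule required a late rise in basal tips, so its time and size are given as a description. Over the 52 loci the mean late R ranged from 0.81 to 3.59 with a median of 0.98, and it was below 1 in 27 loci, from 1 to 1.5 in 13 and at least 1.5 in 12. In the basal series the median R lay between 0.04 and 0.13 from 0.5 to 8 h. It reached 0.34 at 16 h and 0.80 at 24 h, and then 1.07 at 36 h and 1.31 by 48 h. Over the 12113 loci with a log2 level of at least 2 at basal 48 h, the median basal R at 48 h was 0.07. An R of at least 0.8 was found in 6 loci at 16 h and 26 at 24 h, and in 49 at 36 h and 50 by 48 h. The value was highest at 48 h in 32 loci, in 15 at 36 h and in 5 at 24 h, and in 27 it increased over both steps from 24 to 48 h. The share over all loci was not computed for any of these counts, so nothing is read from them. In the apical series, held down by the rule, the median R at 48 h was 0.07 from the 50% level and 0.15 from the 80% level. Over the same 12113 loci these medians were 0.05 and 0.10. In these bulk libraries, more cells of one type and more RNA per cell cannot be told apart.

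**Figure D1:**
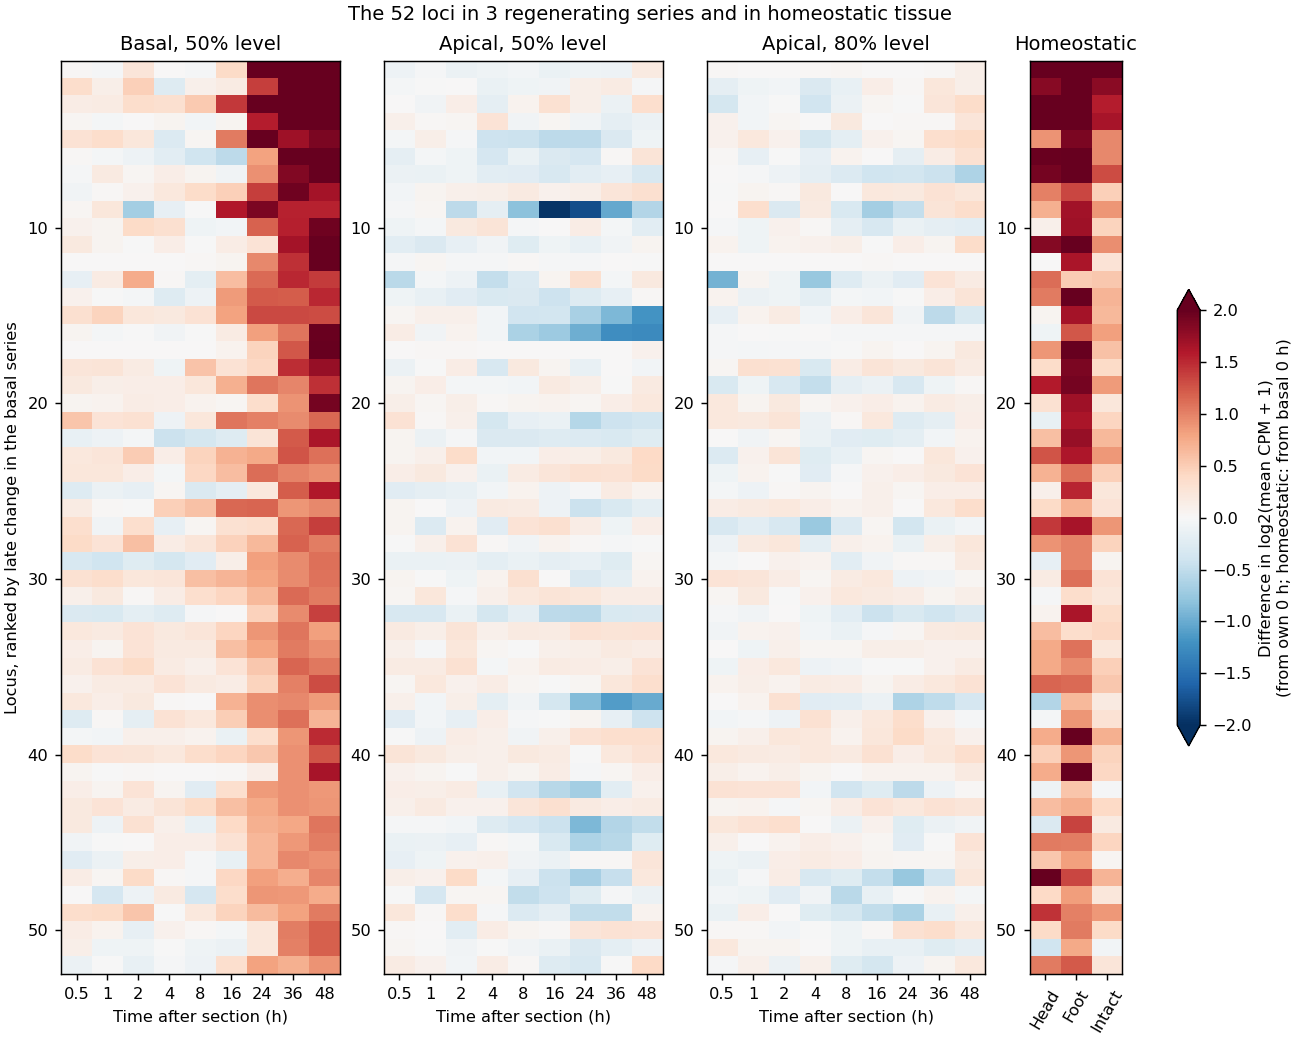
Change of the 52 loci (rows, by rank) as the difference in log2(mean CPM + 1) from 0 h of the same series, at 9 times (h after section) in the basal, apical 50% and apical 80% series; the last panel gives homeostatic head, foot and intact animals against basal 0 h. Red is higher and blue lower, with colours limited at 2 in either direction. The basal panel turns red from 24 h, where the median is 0.80, and the apical panels stay under 0.4, as the rule requires, with a few blue rows.

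Fitted contrasts between groups that the rule used are given as a description, from which nothing is read. Called means a p under 0.05 in the edgeR quasi-likelihood test after Benjamini-Hochberg adjustment over all 20883 loci. Basal tips at 24 h were called higher than at 0 h in 41 of the 52 loci (8.83% of all loci tested), at 36 h in 52 (11.9%) and at 48 h in 51 (13.4%). At 48 h, basal tips were called higher than apical 50% tips in 50 loci (8.54% of all). All 3 libraries of basal 48 h lay above all 3 of basal 0 h in 50 loci (23.3% of all). All 9 libraries of 24, 36 and 48 h lay above those of 0 h in 41 loci (8.05% of all).

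Rank 1, locus loc08344, began close to nothing. It had 13.1, 18.6 and 12.7 CPM in basal tips at 48 h, against 0, 0.0311 and 0.0288 CPM at 0 h. Its basal values at 24 h were 9.21, 8.58 and 3.35 CPM, and at 16 h they were 0.239, 0.488 and 0.241 CPM. The step between 16 and 24 h did not overlap, and library C was the lowest at 24 h. In the apical series at 48 h rank 1 had 0, 0.788 and 0 CPM from the 50% level and 0.103, 0.0297 and 0.132 CPM from the 80% level. Heads had 22.6, 15.5 and 15.9 CPM, feet 37.1, 44.8 and 26.9 CPM, and intact animals 6.12, 7.85 and 4.96 CPM. It was thus present at both ends of the homeostatic animal and nearly absent from freshly cut tips of the column.

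Rank 2, locus loc14394, had 32.5, 35.5 and 43.3 CPM in basal tips at 48 h, against 0.965, 2.95 and 2.94 CPM at 0 h. The basal values were 2.87, 2.93 and 2.19 CPM at 16 h, 7.97, 11.7 and 3.05 CPM at 24 h and 42.1, 42.1 and 34.9 CPM at 36 h. Most of its rise therefore fell between 24 and 36 h, where the libraries did not overlap. Homeostatic heads had 11.5, 10.0 and 10.3 CPM, feet 39.5, 46.8 and 32.5 CPM and intact animals 6.61, 13.8 and 10.9 CPM. Feet stood apart from both other groups, and basal tips at 36 and 48 h were at the level of feet.

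Rank 3 rose earlier and was not highest in feet. Its basal values were 38.5, 27.4 and 38.3 CPM at 48 h, against 3.53, 6.43 and 6.22 CPM at 0 h, and they had reached 19.5, 16.2 and 12.2 CPM by 16 h. Heads had 52.1, 40.7 and 49.2 CPM, feet 39.8, 28.0 and 29.6 CPM and intact animals 16.2, 22.4 and 15.0 CPM. All 3 head libraries lay above all 3 foot libraries, and all libraries of both lay above those of intact animals. In apical 50% tips at 48 h the same locus had 8.90, 8.04 and 6.19 CPM, against 5.26, 6.30 and 6.14 CPM at 0 h.

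Rank 4 was low throughout, with 3.78, 7.49 and 4.79 CPM in basal tips at 48 h, against 0.260, 0.373 and 0.345 CPM at 0 h. Rank 5 had 44.8, 39.7 and 47.6 CPM at basal 48 h, against 10.5, 9.91 and 13.1 CPM at 0 h, and was highest at 24 h with 54.2, 58.7 and 38.5 CPM. Rank 6 had 10.5, 15.2 and 15.0 CPM at basal 48 h, against 2.56, 1.40 and 1.58 CPM at 0 h. In each of these 3 loci the libraries of 48 h and 0 h did not overlap. Rank 6 differed from the others before its rise, since it was lower at 16 h, with 0.958, 1.10 and 0.872 CPM, than in any library of 0 h.

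**Figure D2:**
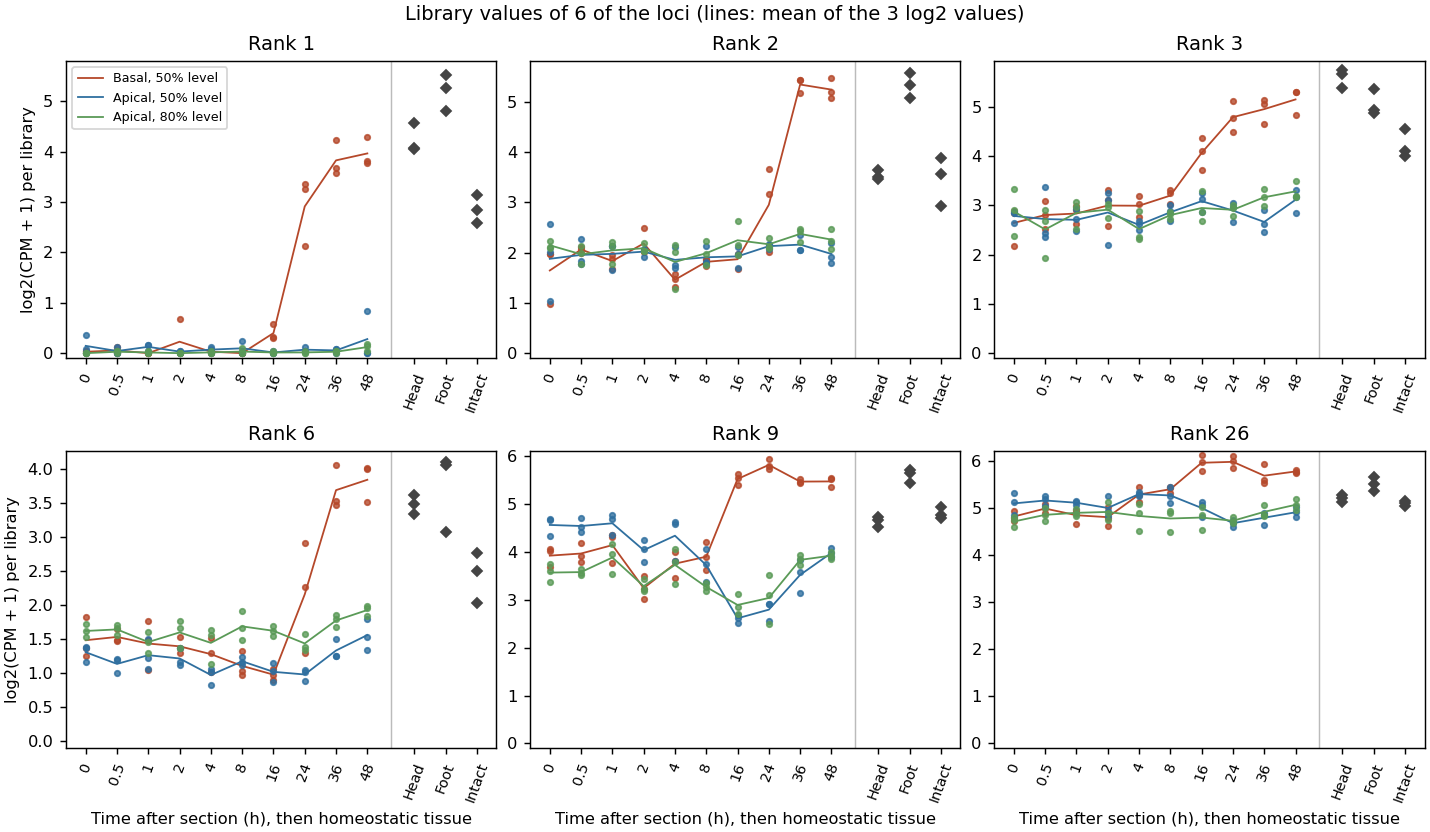
Values of every library for ranks 1, 2, 3, 6, 9 and 26 as log2(CPM + 1), by time after section (h) in the basal, apical 50% and apical 80% series (circles, with lines through the mean of the 3 log2 values) and in homeostatic head, foot and intact animals (diamonds). All basal libraries lie above all apical ones at 16 h in ranks 3, 9 and 26, and the basal means separate from 24 h on in ranks 2 and 6.

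The lower edge of the set was shallow. Rank 51 had 35.0, 50.3 and 44.7 CPM in basal tips at 48 h, against 22.1, 15.3 and 17.6 CPM at 0 h. Rank 52 had 4.72, 6.10 and 4.91 CPM, against 3.34, 1.61 and 2.13 CPM. Both had a mean late R of 0.81, while the first 3 loci outside had 0.768 to 0.775. On the other limits, 25 of the 52 loci came within 0.1 of the apical ceiling, the largest value being 0.40, and 7 had a log2 level under 2.5 at basal 48 h. In 9 loci head and foot differed by more than 1.5 log2 units, and 16 loci outside differed by 2 to 2.5.

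The start of the rise was tested in libraries that took no part in the choice, with basal tips at 16 h against the mean of basal tips at 0.5, 1 and 2 h. None of these 12 libraries enters the rule. In the edgeR quasi-likelihood test, 23 of the 52 loci (44.2%) were called higher at 16 h, against 6.39% of all loci tested. A single locus was called lower, against 4.02% of all. The fitted log2 fold change had a median of 0.40 over the 52 loci and was above 0 in 42, against a median of -0.02 over all loci tested. Over the 12113 loci with a log2 level of at least 2 at basal 48 h, the median was 0.01. All 3 libraries of 16 h lay above all 9 of the earlier times in 18 of the 52 loci, against 4.49% of all. Without the libraries of letter B the count called higher was 12 (3.75% of all loci tested), without letter C it was 14 (3.72% of all), and with a log2 fold change of at least 1 required it was 5 (1.86% of all). Among the 43 loci found again without the A libraries of 0 h, 20 were called higher.

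The largest increase among loci whose log2 CPM averaged at least 2 was in rank 9. Basal tips at 16 h had 48.5, 45.5 and 41.4 CPM, against 14.1, 12.9 and 17.2 CPM at 0.5 h, 19.4, 18.8 and 12.7 CPM at 1 h, and 10.3, 7.05 and 8.33 CPM at 2 h. The groups did not overlap, and the fitted log2 fold change was 1.86 (SE 0.16, edgeR adjusted p = 1.39e-15). This locus had reached its late level by 16 h, since basal tips had 45.3, 45.5 and 39.8 CPM at 48 h. In apical 50% tips the same locus had 4.73, 5.19 and 5.46 CPM at 16 h, against 24.5, 19.2 and 24.6 CPM at 0 h, without overlap. The ceiling of the rule limits only rises in the apical series, and none of its limits on a fall reaches 16 h.

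Rank 3 followed with a fitted log2 change of 1.36 (SE 0.22, edgeR adjusted p = 1.33e-06). Its values at 16 h, given above, lay over the 4.73 to 8.85 CPM of the earlier libraries. Rank 26 had 54.4, 62.3 and 69.4 CPM in basal tips at 16 h, against 23.7 to 33.1 CPM in the 9 libraries of 0.5, 1 and 2 h. Its log2 fold change was 1.16 (SE 0.08, edgeR adjusted p = 1.82e-19), and it changed little afterwards, with 53.2, 53.8 and 55.6 CPM at 48 h. The locus called lower at 16 h was rank 6, with a fitted log2 change of -0.79 (SE 0.24, edgeR adjusted p = 0.0216). Its 0.872 to 1.10 CPM at 16 h overlapped the 1.07 to 2.42 CPM of the earlier libraries, and the call was lost without any one of the 3 letters.

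The late course of the 23 loci called higher at 16 h and of the other 29 is described without a test. The split itself sets the difference at 16 h. The rule also set a minimum for the mean R over 24, 36 and 48 h. A locus low at 24 h thus had to be higher later to be included. The 23 had a median basal R of 0.62 at 16 h and 0.93 at 24 h, with 1.07 at 36 h and 1.10 by 48 h. The other 29 had medians of 0.15 at 16 h and 0.63 at 24 h, with 1.06 at 36 h and 1.39 by 48 h. The value was highest at 48 h in 9 of the 23 and in 23 of the 29. The 89 loci with the same time criteria but foot at least 2 log2 units above head had 10 loci called higher at 16 h (11.2%) and 3 called lower, with a median log2 fold change of -0.03. Their share called is given beside the 44.2% of the late basal loci, and the difference was not tested.

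Homeostatic feet carried more of these transcripts than intact animals did. Intact animals are not used by the rule, but the foot libraries are, through the limit on the difference between head and foot, so this test is not wholly independent of the choice. In the edgeR test, 46 of the 52 loci (88.5%) were called higher in feet than in intact animals, against 9.60% of all loci tested, and 0 were called lower, against 10.2% of all. No locus was lower at an unadjusted p under 0.05 either, and DESeq2 also called 0 lower. The median log2 fold change was 0.90, against 0.04 over all loci tested. All 3 foot libraries lay above all 3 intact libraries in 48 loci, against 16.2% of all. The loci not called were ranks 13, 16, 28, 31, 33 and 49. With a log2 fold change of at least 1 required, 23 loci were called higher (4.67% of all loci tested). Among the 43 loci found again without the A libraries of 0 h, 39 were called higher.

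Rank 11 had the largest such change among loci whose log2 CPM averaged at least 2. Feet had 21.9, 26.4 and 14.0 CPM, against 6.02, 6.22 and 4.04 CPM in intact animals, with a fitted log2 change of 1.96 (SE 0.22, edgeR adjusted p = 1.13e-11). Rank 2 followed at 1.94 (SE 0.31, edgeR adjusted p = 3.85e-07), with the values given above. Rank 18 had 15.0, 13.2 and 11.7 CPM in feet, against 3.08, 5.20 and 3.81 CPM in intact animals, with a fitted log2 change of 1.75 (SE 0.34, edgeR adjusted p = 2.94e-05). In all 3 loci the libraries of feet lay above those of intact animals.

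Heads showed a mixed picture against the same intact animals. The head libraries enter the rule through the same limit, so this test too is not wholly independent of the choice. In the edgeR test, 17 of the 52 loci (32.7%) were called higher in heads, against 19.5% of all loci tested, and 9 (17.3%) were called lower, against 22.5% of all. The median log2 fold change was 0.11, beside 0.04 over all loci. The comparisons of feet and of heads share the intact libraries. Without the libraries of letter A the count called higher in heads was 9 (17.3%), against 15.3% of all loci tested, and without letter C it was 10 (19.2%), against 13.8% of all. With a log2 fold change of at least 1 required it was 5 (9.62%), against 7.96% of all. Under the letter A and fold settings the share of the 52 loci is near that of all loci. Among the 43 loci found again without the A libraries of 0 h, 13 were called higher and 9 lower.

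Ranks 3, 47 and 11 had the largest increases in heads among loci whose log2 CPM averaged at least 2. Rank 47 had 68.5, 68.7 and 76.6 CPM in heads, against 26.5, 37.3 and 20.4 CPM in intact animals. The log2 fold changes were 1.32 for rank 3 (SE 0.28, edgeR adjusted p = 5.03e-05), 1.26 for rank 47 (SE 0.21, 8.53e-07) and 0.94 for rank 11 (SE 0.21, 0.000156). The largest decreases were in ranks 37, 21 and 44. Rank 37 had 1.65, 1.498 and 1.82 CPM in heads, against 4.17, 3.40 and 3.12 CPM in intact animals, with a fitted log2 change of -1.20 (SE 0.23, edgeR adjusted p = 1.39e-05). Rank 21 changed by -0.80 (SE 0.21, edgeR adjusted p = 0.000853) and rank 44 by -0.74 (SE 0.25, 0.0137).

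**Figure D3:**
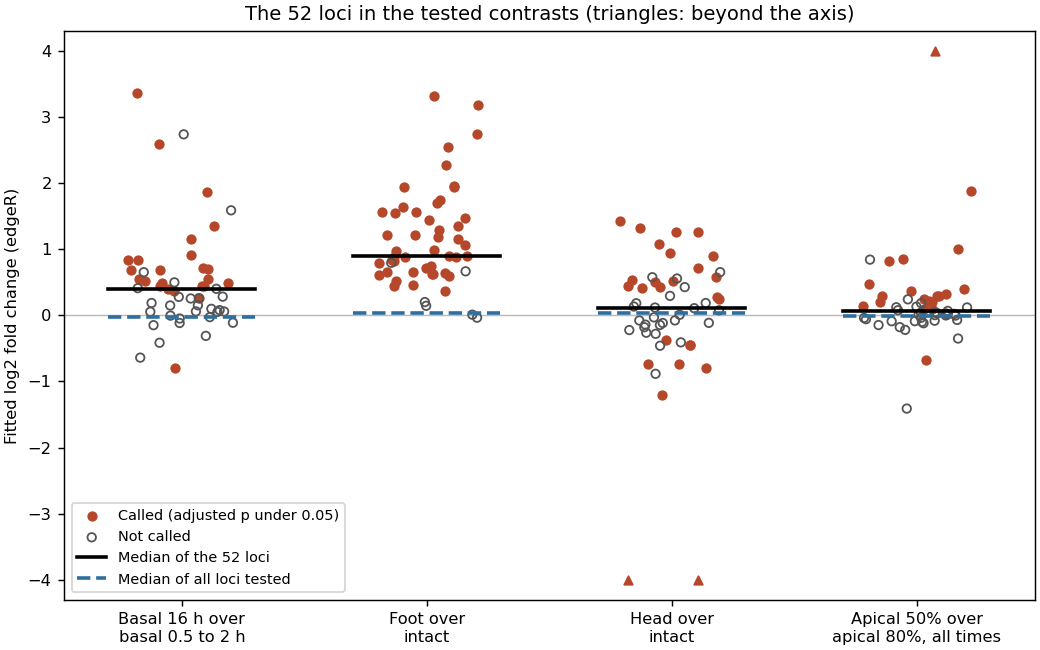
Fitted log2 fold change (edgeR) of each of the 52 loci in the 4 contrasts that were tested: basal 16 h over basal 0.5 to 2 h, foot over intact, head over intact, and apical 50% over apical 80% averaged over all times. Filled points were called at an adjusted p under 0.05, open points were not, triangles lie beyond the axis, and bars give the median of the 52 loci (black) and of all loci tested (dashed). The column for foot over intact lies almost wholly above 0, with a median of 0.90, and the column for head over intact spreads to both sides.

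Heads and feet were compared by the rule itself, so their difference is given as a description. The log2(mean CPM + 1) of heads minus that of feet ranged from -1.81 to 0.66 with a median of -0.65. It was at or below -1 in 19 loci and at or above 1 in 0 loci. The median over the 12113 loci with a log2 level of at least 2 at basal 48 h was -0.02. In the fitted contrast of head over foot, 38 loci were called lower in heads (25.5% of all loci tested) and 1, rank 47, was called higher (18.0% of all), from which nothing is read. Rank 47 had 68.5 to 76.6 CPM in heads, against 50.6, 39.1 and 44.8 CPM in feet.

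The added 1 CPM makes the log2 differences of low loci smaller. In 9 loci the fitted log2 fold change of head over foot was at or below -2. The fit does not add 1 CPM, though its fold changes stay finite at 0 reads, and it also scales libraries by TMM. The parts of these differences were not separated. All 9 were called, while 25.5% of all loci tested were called lower in heads. The mean level of the 9 loci in feet was between 1.52 and 39.6 CPM. Rank 12 had 0 reads in the 3 head libraries, against 216 reads in the foot libraries, and was at least 71.0-fold lower in heads than in feet. Rank 16 had 0 reads in heads, against 158 reads in feet, and was at least 51.9-fold lower. These bounds set 3 counts over the head group, which is 0.0294 CPM, in place of 0, and cover counting error only.

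Levels in basal tips at 48 h and in feet are set side by side as a description, since the rule used both groups. The log2(mean CPM + 1) of basal tips at 48 h minus that of feet had a median of -0.01 and ranged from -1.24 to 0.88. The difference was within 0.5 in 44 loci and within 1 in 51, and basal tips were the higher in 25. Differences within 0.5 were as common in general, with 89.6% of all loci tested and 86.7% of the 12113 loci with a log2 level of at least 2 at basal 48 h. All 3 libraries of basal 48 h lay above all 3 of feet in 5 loci, against 13.7% of all loci tested. All foot libraries lay above those of basal 48 h in 9 loci, against 12.3% of all. In the 89 loci with the larger foot difference, the median difference of basal 48 h minus feet was -0.17, and 53 were within 0.5.

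Levels at 0 h and at 48 h were also used by the rule, through the change from 0 h, and nothing is read from their place against intact animals. At 0 h the basal tips were lower than intact animals in 50 of the 52 loci (60.4% of all loci tested), with a median difference of -0.45 in log2(mean CPM + 1). Apical tips at 0 h were lower than intact animals in 44 loci from the 50% level (58.3% of all) and in 52 from the 80% level (66.1% of all). At 48 h basal tips were above intact animals in all 52 loci (54.4% of all loci tested), with a median difference of 0.82. The median log2(mean CPM + 1) of the 52 loci was 4.98 in basal tips at 48 h, against 2.63 at 0 h. Among homeostatic groups it was 3.87 in heads, 4.71 in feet and 3.75 in intact animals.

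**Figure D4:**
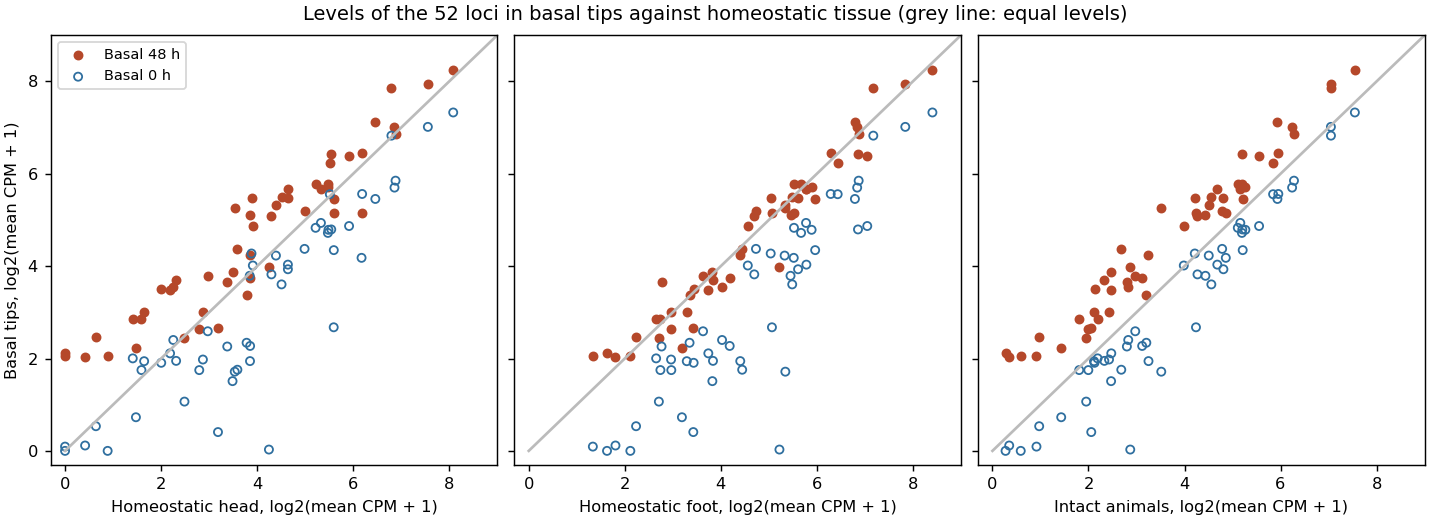
Level of each of the 52 loci in basal tips, as log2(mean CPM + 1), at 48 h (filled) and at 0 h (open), against its level on the same scale in homeostatic heads, feet and intact animals; the grey line marks equal levels. Against feet the filled points follow the line, with 44 of 52 within 0.5 (89.6% of all loci tested), and against intact animals all 52 filled points lie above it.

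Part of the set differed by level of section within head regeneration. The apical series differ in the level of section, and the rule set no limit on the difference between them. It did use all libraries of both, through the ceiling on the change from 0 h, so this test is not wholly independent of the choice. Averaged over the 10 times, apical 50% tips were called higher than apical 80% tips in 19 of the 52 loci (36.5%) by the edgeR test, against 11.3% of all loci tested. A single locus, rank 6, was called lower, against 12.5% of all. The median log2 fold change was 0.07, beside -0.01 over all loci. Without letter B the count called higher was 12 (5.20% of all). At 0 h alone 6 were called higher (0.867% of all), and 2 were when a log2 fold change of at least 1 was required (0.723% of all). Among the 43 loci found again without the A libraries of 0 h, 18 were called higher. In the 89 loci with the larger foot difference, 24 were called higher and 6 lower, and the difference from the 52 loci was not tested. At 0 h their median log2(mean CPM + 1) was only 0.53 in apical 50% tips and 0.28 in apical 80% tips. That of the 52 loci was 2.92 and 2.84.

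Among loci whose log2 CPM averaged at least 2, rank 37 had the largest difference between the levels. At 0 h it had 6.83, 4.41 and 4.74 CPM in apical 50% tips, against 2.56, 2.51 and 1.98 CPM in apical 80% tips, and the log2 fold change over all times was 1.00 (SE 0.07, edgeR adjusted p = 1.79e-19). Rank 21 followed at 0.85 (SE 0.07, edgeR adjusted p = 1.64e-18). At 0 h it had 8.04, 6.58 and 6.67 CPM in apical 50% tips, against 3.14, 3.60 and 3.29 CPM in apical 80% tips. Rank 15 differed by 0.83 (SE 0.07, edgeR adjusted p = 2.11e-15), with 22.6, 28.7 and 19.7 CPM in apical 50% tips at 0 h, against 11.0, 15.0 and 6.86 CPM in apical 80% tips. The libraries of both levels did not overlap at 0 h in these 3 loci. Ranks 37 and 21 also had the largest decreases in heads among loci whose log2 CPM averaged at least 2.

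Rank 16 differed by more but had few reads. It had 1.60, 1.84 and 1.23 CPM in apical 50% tips at 0 h, which is 165 reads in all, against 0, 0.0558 and 0 CPM, or 2 reads, in apical 80% tips. By 48 h the apical 50% tips had 0.151, 0.0315 and 0 CPM. Basal tips from the same level ran the other way, with 3.47, 1.85 and 4.23 CPM at 48 h, against 0.0742, 0.124 and 0 CPM at 0 h. Tips cut at the 50% level thus differed at 0 h between the sides of the section for this locus.

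A few loci moved in the apical series below the ceiling of the rule, which used these groups. Apical 50% tips at 48 h were called lower than at 0 h in 7 loci, ranks 9, 15, 16, 37, 38, 44 and 45 (9.95% of all loci tested), and higher in 1, rank 17 (13.0% of all). Apical 80% tips at 48 h were called lower in 3 loci, ranks 7, 37 and 51 (12.3% of all), and higher in rank 17 alone (12.9% of all). Nothing is read from these counts. Rank 17 had 0.0302, 0.126 and 0.0304 CPM in apical 50% tips at 48 h, against 0 CPM in every library of 0 h. Its fitted log2 changes were 4.06 (SE 1.38) from the 50% level and 2.35 (SE 0.84) from the 80% level, while its R was 0.09 and 0.19. These changes rest on few reads, and a fold over 0 reads is a poor measure of size. With the added 1 CPM, a locus this low can thus be called higher and stay under the ceiling. Rank 15 had 10.2, 9.55 and 9.50 CPM in apical 50% tips at 48 h, against 22.6, 28.7 and 19.7 CPM at 0 h. Rank 37 had 2.26, 2.21 and 1.94 CPM at 48 h, against its 0 h values given above.

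Several loci held more than one transcript sequence, and the rise was not always shared by all of them. The 52 loci held 247 sequences, with a median of 3 and at most 19 in a locus. A single sequence made up 15 loci (28.8%), beside 37.3% of all loci tested. In 27 of the other 37 loci the sequence with most reads in basal tips at 48 h also had most reads at 0.5 to 2 h. This leading sequence took a median of 77.6% of the reads of its locus at 48 h and 68.6% at 0.5 to 2 h, and its share differed by over 10 percentage points in 12 loci. Every sequence of the locus was higher at 48 h in 13 of the 37. Reads that fit several sequences of a locus may have been split between them before deposit, so these shares are less certain than the sums.

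The share of the leading sequence, which was picked for its reads at 48 h, differed most in ranks 7, 11, 39, 19 and 14. It took 81.5% of the reads of rank 7 at basal 48 h, against 25.5% at 0.5 to 2 h. By library, the leading sequence of rank 7 took 83.07%, 58.02% and 89.45% at 48 h. Its 59.09% in library C of basal 2 h overlapped these. In rank 11 it took 75.5% at 48 h, against 23.4%, and in rank 39 it took 63.3%, against 13.4%. In rank 19 it took 76.2% at 48 h, against 34.7%, and in rank 14 it took 57.5%, against 16.1%. In all 5 another sequence had most reads at 0.5 to 2 h. Rank 39 rests on few reads, 357 at 48 h and 187 at 0.5 to 2 h.

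**Figure D5:**
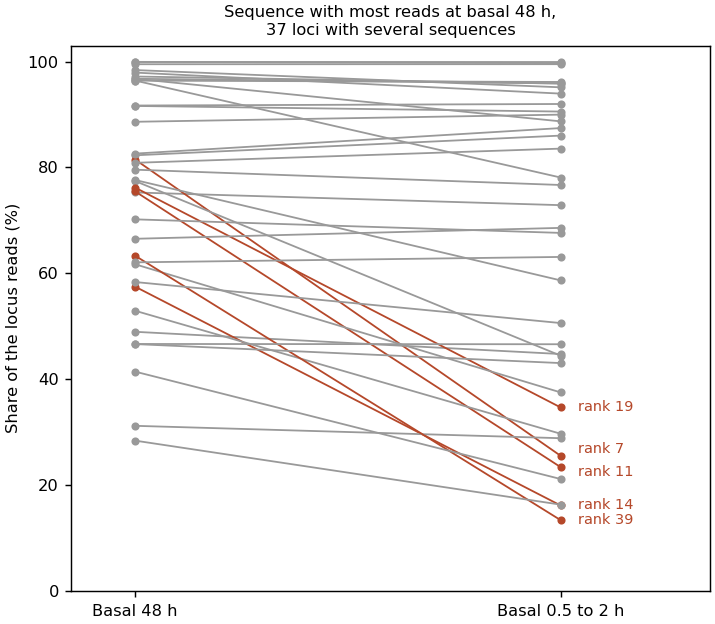
Share of the reads of a locus (%) taken by the sequence that has most reads at basal 48 h, at basal 48 h and at basal 0.5 to 2 h (3 and 9 libraries summed), for the 37 loci with several sequences. Ranks 7, 11, 14, 19 and 39 are coloured: their share is 57.5% to 81.5% at 48 h and 13.4% to 34.7% at 0.5 to 2 h, while most grey lines are nearly level.

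In rank 14 the leading sequence and the rest of the locus differed in where they were high. Its leading sequence had 42.7, 54.9 and 44.2 CPM in basal tips at 48 h, against 3.56, 3.57 and 3.92 CPM at 0 h. It had 5.16, 3.10 and 6.25 CPM in heads, against 123, 87.7 and 73.6 CPM in feet, with no overlap. The other 4 sequences of the locus ran the other way, with 55.5, 51.8 and 56.2 CPM in heads, against 34.3, 39.7 and 36.3 CPM in feet. In basal tips those other sequences had 31.4, 38.2 and 34.8 CPM at 48 h, against 24.5, 24.7 and 24.4 CPM at 0 h. The sum of the locus was 1.14 log2 units lower in heads than in feet, while its leading sequence was 4.04 log2 units lower in heads.

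In 3 of the 37 loci, ranks 2, 14 and 41, the leading sequence was at least 2 log2 units lower in heads than in feet on the scale of log2(mean CPM + 1). Rank 39 had such a sequence that was not the leading one. In rank 26 a sequence was at least 2 units higher in heads, while its leading sequence averaged 7.73 CPM in heads, against 25.8 CPM in feet. Across the 37 loci the leading sequence was lower in heads than in feet in 30. Its median difference was -0.47, beside -0.37 for the sums of the loci. The leading sequence was picked for its reads in basal tips at 48 h, and the rule used heads and feet, so nothing is read from this tilt.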

How the data were processed

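PolyA-selected RNA was sequenced from directional TruSeq libraries, per the labels' protocols. The authors deposited whole-number read counts for 79774 transcript sequences and a normalized signal for 40479 of them. The deposited signal equals the counts times 1 factor per library (0.652 to 1.26). Cutadapt 1.11, Salmon 0.7.2 and DESeq2 are named, with no role, in the submitters' processing notes. The reference transcriptome is not given in the sources used here. Salmon estimates abundances, so whole counts may be rounded estimates.

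Counts were summed per locus, and filterByExpr kept 20883 loci with 99.98% of the reads. R 4.3.3 with edgeR 4.0.16 fitted 1 coefficient per group over 99 libraries, with TMM scaling (0.876 to 1.17) and the older quasi-likelihood F-test (legacy = TRUE). The fit was also run on simulated counts, with the same dispersion for every locus and no effect of letter. Such counts are simpler than these data, so nothing is read from that run. An SE is the fold change on the log2 scale, without its sign, over the root of the F statistic. DESeq2 1.42.0, and limma 3.58.1 on log2 of the normalized signal plus 1, were alternatives.

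The members, contrasts and lists were chosen with earlier results of these data known. Loci named were ranks 1 to 6, the last 2, the first outside, and the 3 called loci with the largest change in each direction of each tested contrast, where log2 CPM averaged at least 2. The rule for names asked for ranks 149 and 150, which do not exist among 52 loci. Ranks 7, 12, 14, 16, 17, 19, 26 (its sequences), 39 and 41 and the locus called lower at 16 h were singled out after their values were seen.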

Additional observations from a re-analysis of the deposited data

How the results depend on the processing

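Counts of members called were recomputed under RLE size factors, the newer quasi-likelihood method, DESeq2, limma on the normalized signal, no filter, the libraries of a contrast alone, other baselines, a replicate block, each letter left out, a fold minimum, and the 43 members found without the A libraries of 0 h. The last alternative, and leaving out library C of basal 24 h, were chosen after seeing the data. Leaving out 1 letter gave 12 to 16 loci called higher at basal 16 h (main 23), against 3.72% to 5.26% of all loci tested. It gave 35 to 41 higher in feet (main 46), against 5.63% to 7.24% of all. In heads it gave 9 to 14 higher (main 17), against 13.8% to 15.3% of all. There 7 to 8 were lower (main 9), against 17.9% to 22.7% of all. It gave 12 to 16 higher in apical 50% than apical 80% tips (main 19), against 5.20% to 10.1% of all. In each case it gave 0 lower at 16 h (main 1), against 1.45% to 2.34% of all. It also gave 0 lower in feet (main 0), against 6.50% to 9.12% of all. In apical 50% tips it gave 1 to 3 lower (main 1), against 8.00% to 10.1% of all. With a log2 fold change of at least 1 required, 5 loci were higher at 16 h (1.86% of all) and 0 lower (1.21% of all). In feet 23 were higher (4.67% of all), and in heads 5 were higher (7.96% of all) and 3 lower (8.30% of all). In apical 50% tips 2 were higher (0.723% of all) and 0 lower (1.54% of all). The single locus lower at 16 h became 0 with the newer method, the normalized signal, or 2 h or 0.5 h alone as baseline. The share of all loci called lower was then 1.74% to 5.425%. The count lower in apical 50% tips was 2 with the replicate block, DESeq2 and the normalized signal (12.4% to 13.9% of all). At 0 h alone it was 0 (1.82% of all), and 6 were higher (0.867% of all). The cause of these shifts was not tested.

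The rule found again 37 of the 52 loci with a pseudocount of 0.25 and 30 with 4, 48 with TMM-scaled CPM, 44 with medians, 50 with the normalized signal, and 28 to 35 with 1 letter left out, the lowest being without C and B giving 33. Of the 52 loci, 8 were found under all of these 9 alternatives to the rule, the pair of 0 h libraries included, and 0 under none of them.

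Same-letter libraries deviated together unevenly. Correlations of their deviations over 10988 loci ranged from -0.0703 to 0.812 between the apical series, -0.0957 to 0.502 at 16 h, -0.128 to 0.198 for feet and -0.163 to 0.145 for heads. They exceeded 0.1 in 29 of 30 pairs between the apical series, the exception being letter A at 0 h, and in 6 of 9, 1 of 3 and 1 of 3 pairs of the others. Between the apical series 58 of 60 libraries correlated best with their own letter, a hint from the data that letters tie these series, but no comparison had every pair over 0.1 and the block was kept as an alternative. The replicate block gave 24 loci higher (6.915% of all loci tested) and 1 lower (4.57%) at 16 h. It gave 46 higher (10.42% of all) and 0 lower (10.84%) in feet, and 17 higher (20.45%) and 9 lower (23.02%) in heads. Between the apical series it gave 20 higher (12.34% of all) and 2 lower (13.19%). Ranks 12, 16 and 17 rest on few reads.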

Other observations

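With the apical 50% series in the place of the basal one and the basal series held under the ceiling, the rule without a limit on head and foot gave 173 loci. Of these, 52 had head and foot within 2 log2 units and 121 had head at least 2 units above foot. The basal rule, which also held the apical 80% series under the ceiling, gave 141, of which 52 and 89 had head and foot within and beyond that limit.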
